A study of Homo sapiens with 4 samples.

Results

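Macrophage migration inhibitory factor (MIF), its antisense-named feature MIF-AS1, its homologue DDT and its receptor gene CD74 are 4 of the 59385 features in a table of RNA sequencing counts, and they were taken by name. They were measured in C4-2 cells, a line of castration-resistant prostate cancer that descends from LNCaP, kept in RPMI with serum and grown for 3 days in RPMI alone (control) or in RPMI with 50 mM β-hydroxybutyrate (BHB), a ketone body. Each group held 2 libraries made from total RNA with a stranded kit, and the series is about ketones and the histone methyltransferase EZH2 in prostate cancer. Whether each library had its own culture is not in the labels, so a p-value here measures no more than the spread between libraries, and that spread may be technical. Pairs of values follow the replicate numbers, 1 and then 2. The members were selected on their counts in these libraries, since MIF-AS1 held far more than MIF, so that difference is given as a description, with no test.

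MIF is a small secreted protein with cytokine and tautomerase activity. It signals through CD74, the invariant chain of MHC class II, which works with the coreceptor CD44 and with the chemokine receptors CXCR2, CXCR4 and ACKR3. DDT (D-dopachrome tautomerase, also called MIF-2) is the close homologue of MIF and binds CD74 too. MIF is widely expressed and is known to be abundant in prostate cancer cells, and CD74 is best known from antigen-presenting cells.

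The names at the MIF and DDT loci share sequence on opposite strands. In GENCODE release 29 (GRCh38), MIF (ENSG00000240972.1) lies on the plus strand at chr22:23894004-23895227 and MIF-AS1 (ENSG00000218537.1), annotated as antisense, on the minus strand at chr22:23894426-23898930. All 345 coding bases of MIF lie opposite exons of MIF-AS1, and the exons of both overlap over 687 bases, 61.9% of the exon bases of MIF and 46.5% of those of MIF-AS1. Another coding gene, AP000350.4 (chr22:23862188-23895223), overlaps MIF on the plus strand and has 357 exon bases opposite MIF-AS1. Its clone-style name was not matched, and how reads shared with MIF were counted was not tested. The second exon of MIF, all of it coding, is printed with the stretch of MIF-AS1 opposite it, chr22:23894772-23894944 on the plus and the minus strand. A read wholly inside this stretch can be assigned to MIF or MIF-AS1 by strand alone. Of all 50-base windows of the MIF transcript, 42.4% occur in MIF-AS1 on the opposite strand. Of those of the MIF-AS1 transcript, 41.3% occur in MIF on the opposite strand. Capitals mark the codons of the redox-active cysteine pair of MIF and the bases opposite them.
MIF exon 2: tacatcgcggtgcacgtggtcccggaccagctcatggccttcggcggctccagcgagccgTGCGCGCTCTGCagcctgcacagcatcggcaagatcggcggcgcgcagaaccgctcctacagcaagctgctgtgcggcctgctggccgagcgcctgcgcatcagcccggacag
MIF-AS1 opposite MIF exon 2: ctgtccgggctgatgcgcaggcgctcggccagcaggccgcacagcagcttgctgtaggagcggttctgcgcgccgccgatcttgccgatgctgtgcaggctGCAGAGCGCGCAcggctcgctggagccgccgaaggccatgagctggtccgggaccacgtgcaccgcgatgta

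DDT (ENSG00000099977.14) lies on the minus strand at chr22:23971365-23979828. DDTL (ENSG00000099974.7), a DDT-like gene on the plus strand at chr22:23966901-23972532, starts 71673 bases beyond the end of MIF and runs into the last exon of DDT, with 259 exon bases in common. DDTL was not a member but is described because it shares bases with DDT in both orientations. Its second exon (chr22:23967386-23967561) has the same 176 bases as the second exon of DDT (chr22:23973768-23973943), with 0 differences, and the 108 coding bases of the first exons are also alike with 0 differences. Of all 50-base windows of the DDT transcript, 37.7% occur in DDTL on the same strand and 31.8% on the opposite strand. The coding gene AC253536.7 (chr22:23971378-23980469) overlaps DDT on the minus strand, with 246 exon bases opposite DDTL. That name was not matched either, and how reads shared with DDT were counted was not tested. The shared exon and the coding end of DDT inside the last exon of DDTL (chr22:23971554-23971623) are printed because they are where reads of the pair can be confused. All sequences are from the GENCODE transcripts, and lower case without capitals means that no base differs.
DDT exon 2, also DDTL exon 2: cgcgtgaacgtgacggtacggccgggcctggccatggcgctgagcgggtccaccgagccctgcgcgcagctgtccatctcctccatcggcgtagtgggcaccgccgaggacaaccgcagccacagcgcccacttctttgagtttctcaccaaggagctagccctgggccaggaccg
DDT last exon, coding part: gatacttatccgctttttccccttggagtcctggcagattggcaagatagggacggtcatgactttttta
DDTL opposite it: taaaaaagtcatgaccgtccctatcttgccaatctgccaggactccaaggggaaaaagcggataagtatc

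**Figure D1:**
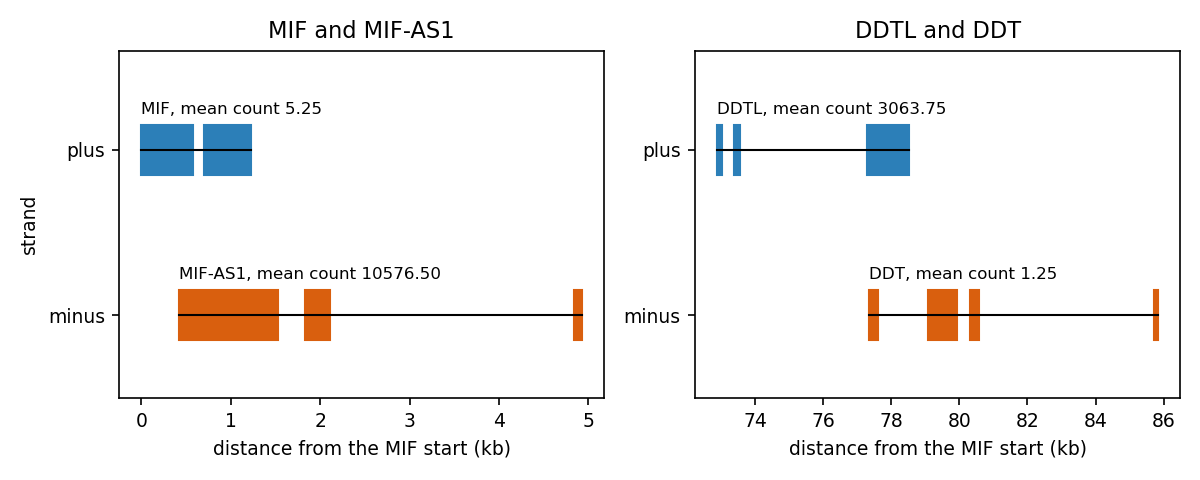
Exons (boxes) of MIF and MIF-AS1 (left) and of DDTL and DDT (right) by strand, against the distance from the MIF start in kilobases, with the mean raw count over 4 libraries. MIF-AS1 averaged 10576.5 counts opposite MIF with 5.25, and DDTL averaged 3063.75 counts opposite DDT with 1.25.

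Almost no reads were listed under the cytokine gene. MIF had 8 and 4 counts in the controls and 7 and 2 under BHB. The control and BHB values overlapped. MIF-AS1 had 13492 and 10516 counts in the controls and 8872 and 9426 under BHB. It was among the most counted features, at ranks 13, 19, 25 and 22 in the same order, and its rank among the 1564 features with a name in -AS was 2 in both controls and 3 in both BHB libraries. The largest share of a library under MIF-AS1 was 0.526% in control replicate 1, with a 95% Wilson interval from 0.517 to 0.535%. The smallest was 0.390% in BHB replicate 1, with an interval from 0.382 to 0.399%. Per kilobase of the exon length in the table, MIF-AS1 held 996 times the count of MIF over the 4 libraries together, with a range of 627 to 2331 among single libraries. That length is 730 bases for MIF, against 1109 in release 29, and 1476 in both for MIF-AS1, so the ratio depends on the annotation. MIF held 21 of the 42327 counts of the pair, or 0.0496% (95% Wilson interval 0.0325 to 0.0758). Intervals cover counting error only, since the labels name no molecular identifiers and reads may be copies of 1 molecule.

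The homologue also had few counts, with many listed under a feature on the opposite strand. The overlap was smaller than at MIF, with DDTL opposite 17.2% of the exon bases and 19.8% of the coding bases of DDT. DDT had 1 and 2 counts in the controls and 0 and 2 under BHB. Each library was below 3 counts, the limit that a count of 0 allows, and no fold change is given for DDT. DDTL had 3479 and 3222 counts in the controls and 2868 and 2686 under BHB. The sources used here do not give the strand setting of the counting, or how reads with more than 1 match were handled. Whether counts listed under MIF-AS1 and DDTL came from RNA of MIF and DDT was not tested, and all values are therefore counts listed under a name.

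**Figure D2:**
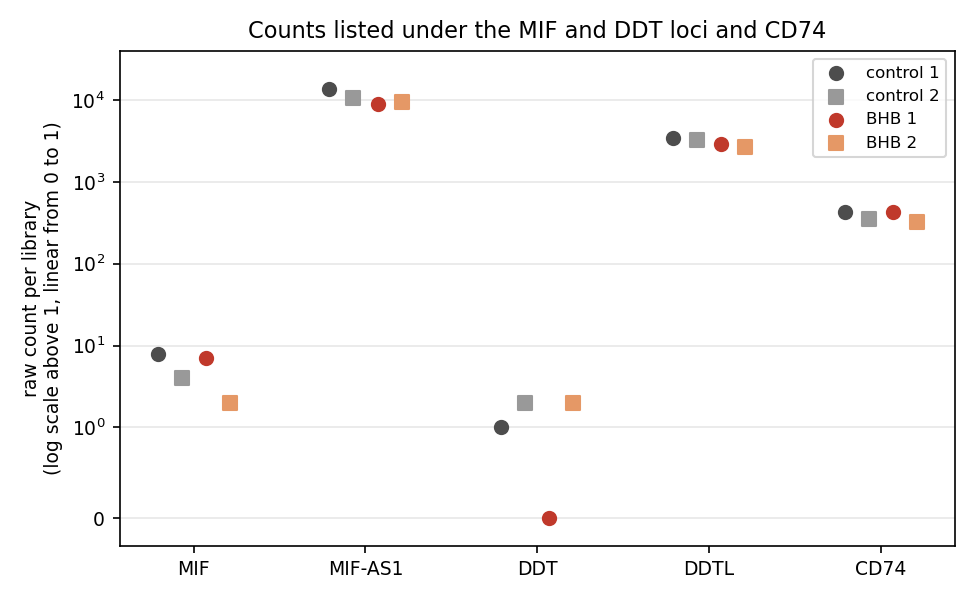
Raw counts per library (log scale above 1, linear from 0 to 1) for the members and DDTL, with 1 point per library and no error bars. MIF and DDT lie between 0 and 8 counts in every library, CD74 between 322 and 428, and MIF-AS1 between 8872 and 13492.

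CD74, on the minus strand of chromosome 5 (ENSG00000019582.14, chr5:150401637-150412929), had a middle level. It had 428 and 351 counts in the controls and 427 and 322 under BHB. One BHB library lay at the level of the higher control and the other was below both controls. Per kilobase of exon length in the table CD74 averaged 62.4 counts, against 7.19 for MIF, 0.887 for DDT, 1937 for DDTL and 7166 for MIF-AS1. For CD74 that length is 6122 bases, against 3184 in release 29. The order of levels, from MIF-AS1 through DDTL and CD74 to MIF, was the same in each library and no library of one feature reached the range of the next. MIF and DDT had ranges that met at 2 counts. GENCODE release 29 has no gene body opposite CD74, and the nearest listed neighbour is TCOF1, which acts in ribosome biogenesis, on the plus strand. It ends 1328 bases before the lower end of CD74.

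BHB and control were compared with edgeR's quasi-likelihood test over the whole table, with Benjamini-Hochberg adjusted p under 0.05 as the threshold. Of 9295 features tested, 0.0% were called higher and 0.0% lower, and 210 had an unadjusted p under 0.05. The corresponding numbers were 0 called and 138 unadjusted for DESeq2, and 0 called and 238 unadjusted for limma-voom. Of the members, MIF-AS1 and CD74 passed the filter on low counts, while MIF and DDT did not and were not tested. None of the members was called. Without control replicate 1 the same test called 582 features higher and 635 lower, without control replicate 2 it called 1035 and 791, and without either BHB library 0 and 0.

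Scaled to library size (TMM, trimmed mean of M-values), MIF-AS1 had 4862 and 5359 CPM (counts scaled to a common library size) in the controls and 3911 and 4240 CPM under BHB. Both BHB libraries lay below both controls, as they did in 14.0% of all tested features. The control mean was 5111 ± 352 CPM (SD, n = 2), and the BHB mean was 4076 ± 232 CPM (SD, n = 2). Their log2 fold change was -0.33, with SE 0.23 and an edgeR adjusted p of 0.9996. In bulk RNA, fewer cells of a kind and less RNA per cell cannot be told apart. The call depended on which libraries and features set the spread. Without control replicate 1 the log2 fold change was -0.41 (edgeR adjusted p = 2.3e-09) and without control replicate 2 it was -0.22 (edgeR adjusted p = 0.0069), when the spread came from the BHB pair alone. Fitted among 514 features with a name in -AS, where 2.33% were called higher and 4.67% lower, it was -0.37 (SE 0.08, edgeR adjusted p = 0.0009). That class of features was chosen with its small spread between the controls known, so its SE may be too small.

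CD74 did not differ between the groups by more than its spread. It had 154 and 179 TMM-scaled CPM in the controls and 188 and 145 under BHB. The BHB libraries lay outside the controls on both sides. The log2 fold change was 0.00081, with SE 0.26 and an edgeR adjusted p of 0.9996, and at that SE a small change could not be detected.

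DDTL had 1254 and 1642 TMM-scaled CPM in the controls and 1264 and 1208 under BHB. The groups overlapped, since BHB replicate 1 was just above control replicate 1, but with total counts and no scaling factor both BHB libraries were below both controls. Its log2 fold change was -0.23 (SE 0.25, edgeR adjusted p = 0.9996). Without control replicate 1 it was -0.42 (edgeR adjusted p = 1.8e-05), and without control replicate 2 it was 0.02 (edgeR adjusted p = 0.92).

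The control libraries differed from each other by class of feature. The ratios given here are of CPM from total counts, with no scaling factor. Coding genes with no gene body opposite had a median log2 ratio of 1.35 between control replicates 1 and 2 over 1145 genes with a mean of at least 20 counts and no library at 0. Noncoding features opposite coding exons had -0.17 over 422 features. Coding genes with another gene body opposite, the class of MIF and DDTL, had 0.22 over 3138 genes. MIF-AS1 had 0.16, at percentile 82.5 of the noncoding features. DDTL had -0.09, at percentile 29.7 of the coding genes with another gene body opposite. MIF, at 8 and 4 counts and below that mean of 20, had 0.80. CD74, although it has no gene body opposite, had 0.09, at percentile 15.9 of the coding genes with none opposite. Its neighbours RPS14, a ribosomal protein gene, and TCOF1 had 2.12 and 1.41, with 498 and 100 counts for RPS14 in the controls. TMM scaling moves the log2 ratio of every feature by -0.30, so that MIF-AS1 had -0.14, CD74 -0.21 and DDTL -0.39 on that scale, while the percentiles stay as given. Depth was 2233711 to 2565080 counts per library. Between the BHB libraries the median log2 ratio of these classes, in the order given, was -0.02, 0.01 and 0.01.

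**Figure D3:**
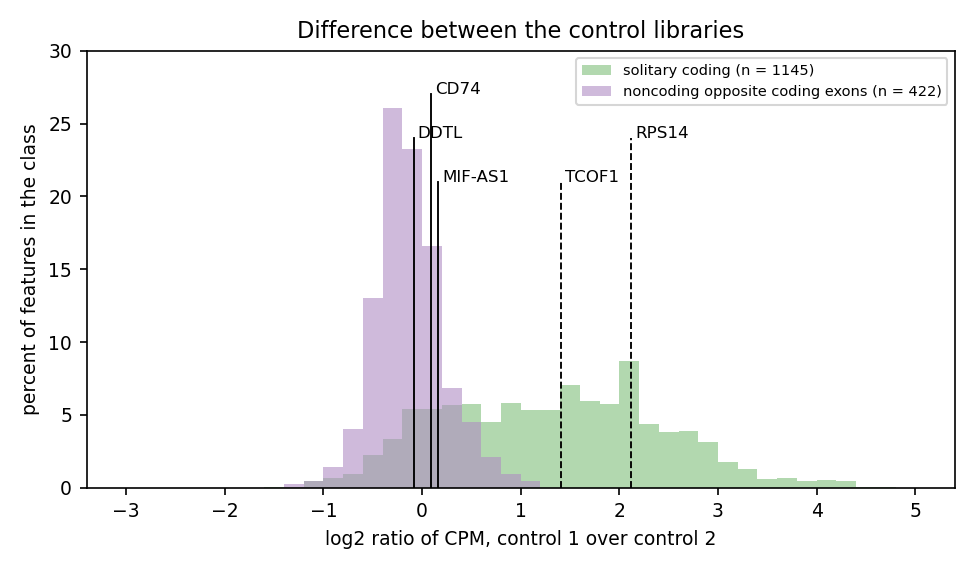
Histograms of the log2 ratio of CPM between control replicates 1 and 2 for coding genes with no gene body opposite (n = 1145) and noncoding features opposite coding exons (n = 422), in percent of each class. Vertical lines mark DDTL (-0.09), CD74 (0.09) and MIF-AS1 (0.16) near 0, and the CD74 neighbours TCOF1 (1.41) and RPS14 (2.12) as dashed lines.

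The other receptor genes of MIF were listed at or near 0. CD44, the signalling partner of CD74, and the chemokine receptor genes CXCR2 and CXCR4 had 0 counts in all 4 libraries, and ACKR3 had 2 counts in control replicate 1 and 0 in the others. At this depth, 0 counts leave room for at most 1.17 to 1.34 CPM listed under a name. That limit covers counting error only, and reads assigned to the other strand would not be listed under these names. CD44-AS1 had 0 counts as well, but it lies opposite only 84 of the 10004 exon bases of CD44. The strand opposite the rest of CD44 was not assessed. Of the 5 receptor genes 1, CD74, was tested.

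Among intracellular partners of MIF, 3 of 4 were tested and 0 were called. COPS5 (JAB1), a subunit of the COP9 signalosome that binds MIF, had 34 and 20 counts in the controls and 13 and 13 with BHB. Both BHB values were below both controls, as in 14.0% of all features tested, and the log2 fold change, -0.95 (SE 0.58), was not called. PRDX1, a peroxiredoxin that binds MIF, had 170 to 217 counts per library, and MMACHC, a vitamin B12 processing gene with 379 exon bases opposite PRDX1, had 6751 to 7294. AIFM1, which recruits MIF to the nucleus in a form of cell death, had a log2 fold change of 0.15 (SE 0.56). HTRA1, a secreted protease reported to bind MIF, had 0 counts in all libraries.

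All 4 transcription factor genes reported to act at the MIF promoter were tested and 0 were called, with a median log2 fold change of -0.51 against -0.03 for all features tested. UHRF1, which binds a repeat in that promoter, had 57 and 19 counts in the controls and 14 and 20 under BHB. Control replicate 1 stood apart from the other libraries, and the log2 fold change was -1.003 (SE 0.59). HIF1A, the oxygen-regulated subunit of HIF-1, had 6 to 22 counts per library, while HIF1A-AS1, with 117 exon bases opposite, had 396 to 484. HIF1A-AS1 had a log2 fold change of 0.14 (SE 0.27) and HIF1A had -0.79 (SE 0.77). Neither was called, and at these SEs the sign of neither change was resolved. CREB1 and SP1 had -0.03 (SE 0.39) and -0.24 (SE 1.37). Of 9 kinase genes downstream of the receptors 5 were tested and 0 called, from -0.30 (SE 0.35) for AKT1 to 0.88 (SE 1.00) for SRC.

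Genes around CD74 in antigen presentation ranged from no counts to over 1000. Of 14 genes of MHC class II and its control, 6 had 0 counts in all libraries, among them HLA-DRA and HLA-DRB1, which encode the chains of HLA-DR. CIITA, the transactivator that switches on MHC class II and CD74, had 1514 and 1247 counts in the controls and 1365 and 1200 under BHB. DEXI, with 2416 exon bases on the strand opposite CIITA, had 8, 0, 2 and 12 counts in the same order. Whether counts listed under CIITA came from RNA of DEXI was not tested. The groups overlapped for CIITA, at a log2 fold change of -0.05 (SE 0.24). RFXANK, a subunit of the RFX complex at MHC class II promoters, had 328 and 326 counts in the controls and 260 and 261 with BHB. Both BHB libraries were below both controls, as in 14.0% of all features tested. The log2 fold change was -0.29 (SE 0.27, edgeR adjusted p = 0.9996). In all, 4 genes of this list were tested and 0 called.

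Of 5 genes that process CD74, the proteases CTSL, CTSB and LGMN were tested, with log2 fold changes of -0.26 (SE 0.59), -0.05 (SE 0.32) and -0.15 (SE 0.83), and 0 were called. CTSS, the cathepsin of antigen-presenting cells, had 0 counts. Of 6 genes of interferon gamma signalling, which induces CD74, 4 were tested and 0 called. IRF1, a transcription factor of that response, had 23 and 24 counts in the controls and 37 and 34 under BHB. Both BHB values were above both controls, as in 15.1% of all features tested, and the log2 fold change was 0.63 (SE 0.50).

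Along chromosome 22, 27 of 30 listed neighbours of MIF were in the table, 11 were tested and 0 were called, with a median log2 fold change of 0.04. DDTL held the most counts of these neighbours. RGL4, a guanine exchange factor gene, had 350 to 431 counts while GUSBP11, with 2252 exon bases opposite, had a mean of 1. SMARCB1, a core subunit of SWI/SNF, had 128 to 210 counts, and DERL3 (degradation of endoplasmic reticulum proteins), with 2923 exon bases opposite, had a mean of 0.5. ADORA2A-AS1 had 149 to 190 counts and ADORA2A, the adenosine receptor gene opposite, had 0 to 4. GSTT2 and GSTT2B, glutathione transferase loci beside DDTL and DDT, the first annotated as a polymorphic pseudogene, had 0 counts in all libraries. Among the 12 neighbours of CD74, 3 were tested, with log2 fold changes from -0.60 to -0.17, and 0 were called.

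Uneven counts on the 2 strands were common among these genes. Each pair was a listed gene and the most counted feature opposite its exons among names matched in the table. Genes with only unmatched features opposite their exons, such as AKT1, CREB1 and IRF1, gave no pair. Of 19 pairs with a mean of 20 counts or more for both together, the larger mean was at least 10 times the smaller in 13. The feature opposite held more counts in 12 of the 19. ADORA2A-AS1 was the feature opposite both ADORA2A and UPB1, so the pairs are not all separate loci. The share over all such pairs in the table was not taken, so these numbers have no background. MIF and DDT were the pairs farthest from equal counts, which is what the locus was chosen for, and several partners had means of 2 counts or fewer, which makes their ratios imprecise.

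**Figure D4:**
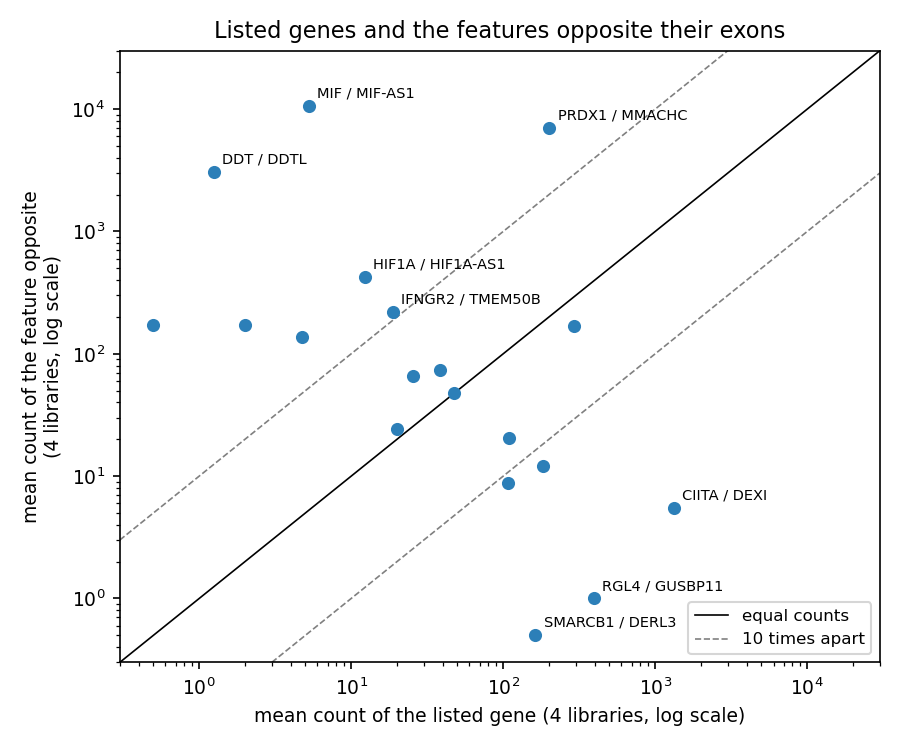
Mean raw count over 4 libraries of listed genes (x axis) against the most counted matched feature opposite their exons (y axis) for 19 pairs. Both axes are on a log scale, with lines for equal counts and for 10 times apart. MIF at 5.25 against 10576.5 and DDT at 1.25 against 3063.75 lie at the upper left, and CIITA at 1331.5 against 5.5 at the lower right.

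Across all members and listed genes, each counted once, 44 of 96 in the table were tested, 0 were called higher and 0 lower, and the median log2 fold change was -0.05. Both BHB libraries were below both controls in 8 of these 44 (18.2%) and above both in 7 (15.9%), close to the 14.0% and 15.1% of all features tested. RFX5-AS1, named after a subunit gene of the RFX complex, had 22 and 21 counts in the controls and 39 and 41 with BHB. Its log2 fold change, 0.94 (SE 0.49), was not called.

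**Figure D5:**
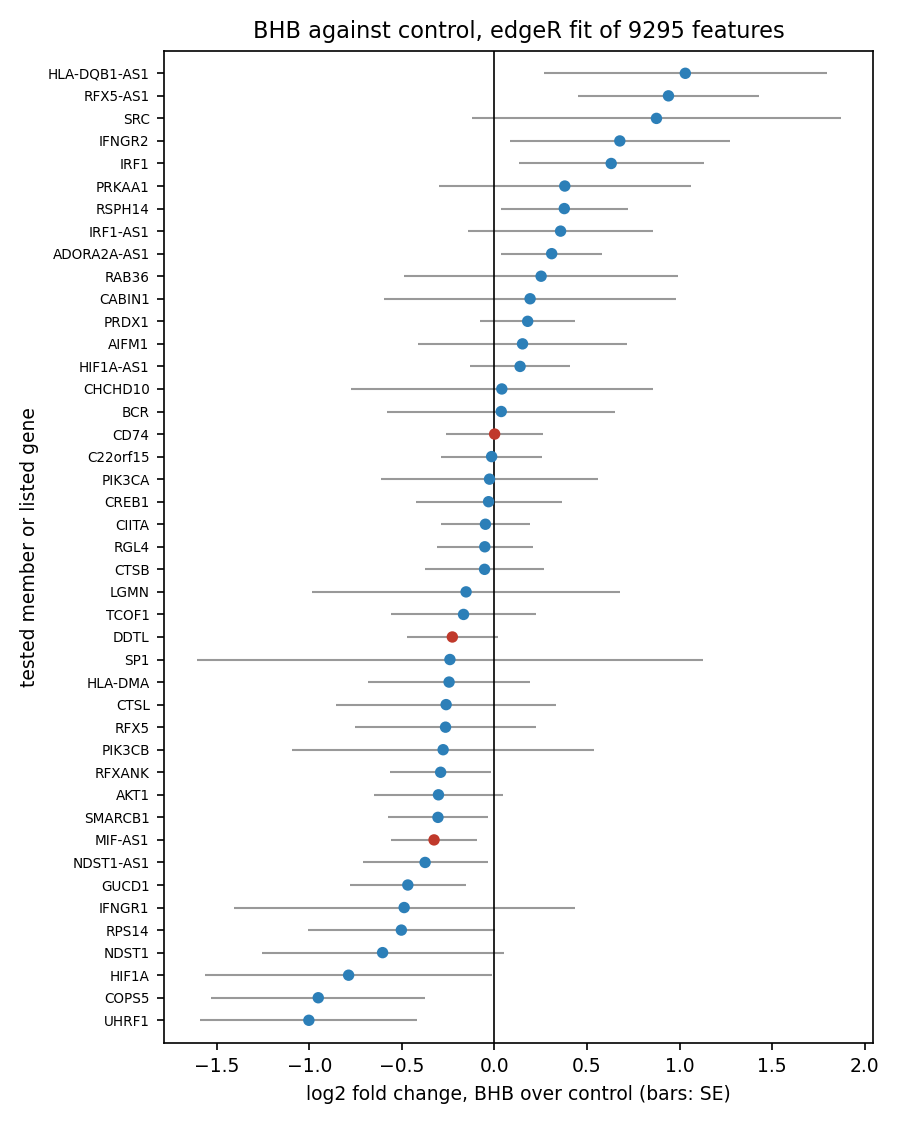
Log2 fold change of BHB over control (x axis, bars are SE, 2 libraries per group) for the 44 tested members and listed genes but 1 (y axis), from the edgeR fit. MIF-AS1, DDTL and CD74 are in red, at -0.33, -0.23 and 0.00081, and none of the 44 passed the test.

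The features most like MIF-AS1 across the 4 libraries were sought among 408 with a mean of at least 1000 counts, by the root mean square difference of centred log2 CPM. They were RP11-571M6.7 (difference 0.0068), RUVBL1 (0.018), U47924.31 (0.044), SAMD11 (0.049) and RP11-2C24.3 (0.051). RUVBL1, which encodes an ATPase of chromatin remodelling complexes, had 4880 and 3870 counts in the controls and 3312 and 3507 under BHB. Like MIF-AS1 it had its highest raw count in control replicate 1, the library with the most counts (2565080). With TMM scaling, which the search used, MIF-AS1 was highest in control replicate 2, at 5359 CPM against 4862 in control replicate 1. With 4 libraries such likeness is a description only.

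The labelled cell type was checked on marker genes. All 11 luminal prostate markers were counted, among them KLK3 (prostate-specific antigen), with 448 and 97 counts in the controls and 154 and 191 under BHB, and their summed level was 5867 and 6690 CPM in controls and 6421 and 6163 CPM with BHB. Of 9 leukocyte and antigen-presenting markers, 7 had 0 counts in all libraries, PTPRC, CD14 and MS4A1 among them, and the summed level was 0 to 1.76 CPM. All 4 fibroblast and all 3 endothelial markers were at 0. Whether a count near 0 under a name, as for MIF, meant that its RNA was absent was not tested.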

How the data were processed

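The authors deposited raw counts per feature with an exon length, for 2 control and 2 BHB libraries (2233711 to 2565080 counts each). The submitters' processing notes list featureCounts 2.0.3 and HISAT2 2.2.1, the packages limma and edgeR, and the builds hg38 and GRCh38. Their annotation release is not given in the sources used here, and 58.3% of placed features had the exon length of GENCODE release 29, so coordinates are those of that release. Features were placed by name (62.1%), and 19879 clone-style names were not matched.

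Counts were tested with edgeR 4.0.16 in R 4.3.3 (filterByExpr, TMM, robust quasi-likelihood F-test, Benjamini-Hochberg adjusted p under 0.05 over 9295 features), and the SE was taken from the F statistic. DESeq2 1.42.0 and limma 3.58.1 (voom), other scalings and filters, a replicate block and fits without each library were alternatives. Members, lists and alternatives were chosen with earlier results of these data known. Named were the 4 members, fixed gene lists, features named after these genes, and the features most like MIF-AS1. DDT was too low for the similarity search. Of the listed genes, 1 is counted but not reported here. Replicates differed beyond sampling noise, with a chi-square per degree of freedom of 12.6 between controls and 2.44 between BHB libraries.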

Additional observations from a re-analysis of the deposited data

How the results depend on the processing

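Over the whole table, 0 features were called higher and 0 lower with DESeq2, limma-voom, the replicate block, 3 scalings and 2 filters, with 0 to 1035 higher and 0 to 791 lower when 1 library was left out. Among features with a name in -AS alone, 12 were higher and 24 lower. The log2 fold change of MIF-AS1 stayed below 0 under all 9 of these settings, from -0.37 among -AS features, where it passed, to -0.29 with upper-quartile scaling, and from -0.41 to -0.22 without 1 library. That of CD74 turned sign, to -0.013 with RLE scaling (DESeq2's factors) and with DESeq2, and to less than 0 with limma-voom (-0.0051) and the replicate block (-0.0068), and from -0.19 to 0.18 without 1 library, with no call. DDTL ran from -0.42 to 0.02 without 1 library, and 0.018, without control replicate 2, was the one value above 0. MIF had -0.30 as a ratio of means, with no test, and -1.45 to 0.33 without 1 library. It could be tested with no filter, at -0.29 (SE 1.19), and with a filter of 1 CPM in 2 libraries, at -0.30 (SE 1.05), and was not called. DDT, under 3 counts in every library, is given no fold change under any setting. The ratio of MIF-AS1 to MIF was 2015 in plain counts, and 856 to 1181 per kilobase without 1 library.

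The replicate block gave MIF-AS1 a log2 fold change of -0.33 (edgeR adjusted p = 1.0) and moved 0 calls. Deviations of same-numbered libraries had a correlation of -0.02, so the numbers were not taken to pair them. The counts listed under MIF and DDT were too few for a precise fold change.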
